A study of Mus musculus with 135 samples.

Results

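The genes described here mark the non-parenchymal cells of the liver, and 10 of 55450 annotated genes were followed at their promoters in ChIP-seq maps of histone H3 trimethylated at lysine 4 (H3K4me3). The sinusoidal endothelial members were Stab1, Stab2 and Lyve1, the Kupffer cell and leukocyte members were Clec4f, Adgre1, Csf1r and Ptprc, and the stellate cell members were Lrat, Des and Reln. A member was taken as marked in a cell preparation when a deposited peak lay within 1 kb of a GENCODE M21 transcription start site of the gene. By this rule 6 of 10 members had a promoter peak in at least 1 of 4 cell preparations, which gave 14 member peaks among 187253 peaks in all.

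H3K4me3 marks promoters that are active or poised for activity, and in a tissue preparation each promoter peak reads the cells in which that gene's promoter carries the mark. Liver holds hepatocytes together with fenestrated sinusoidal endothelial cells that clear macromolecules from blood, Kupffer cells (resident macrophages) and stellate cells that store vitamin A. Genes of the last 3 types therefore serve in liver cell biology as labels of cells other than hepatocytes. In bulk chromatin, fewer cells of a type and less mark per cell cannot be told apart.

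The study compared the inbred founder strains C57BL/6J (B6) and DBA/2J (D2) with BXD lines, recombinant inbred strains bred from them. Hepatocytes and cardiomyocytes came from females 8 weeks old of B6, D2, BXD75 and BXD87, each strain with 3 libraries. Mouse embryonic stem cells were derived from embryonic day 3.5, with 3 lines each of B6 and D2 and 5 lines each of BXD75 and BXD87. Male germ cells, a crude isolate at 14 days post-partum, came from B6 (3 libraries), D2 (3), the hybrid (B6xD2)F1 (4) and 61 BXD strains (69 libraries). The labels name no engineered allele and no treatment. Antibody lot 2557645 served for germ cells of the founders, the F1 and part of the BXD strains, and lot 2746331 for the remaining strains and the 3 preparations that are not germ cells. Nothing in the labels ties a library to a separate animal, so p-values measure the spread between libraries, which may be technical.

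Reads in peaks, ranged from 8.95 to 25.2 M per hepatocyte library, 2.62 to 12.8 M per cardiomyocyte library, 13.8 to 55.3 M per stem cell line and 6.93 to 31.4 M per founder or F1 germ cell library. Of 16 hepatocyte markers 15 had a promoter peak in hepatocytes, and 0 of 8 cardiomyocyte markers did. In cardiomyocytes 5 of 8 cardiomyocyte markers and 3 of 16 hepatocyte markers had a peak. Of 20 further sinusoidal endothelial genes 15 had a hepatocyte promoter peak, against 5 of 20 Kupffer cell and macrophage genes, 3 of 20 stellate cell and fibroblast genes and 2 of 12 lymphocyte genes. The defining macrophage genes Clec4f, Adgre1 and Csf1r had no hepatocyte promoter peak.

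The third D2 hepatocyte library stood apart at markers. Its level lay below the mean of the other D2 libraries at 14 of 15 genes of the wider endothelial list, with a median ratio of 0.424, and at 15 of 15 hepatocyte genes, with a median ratio of 0.700. It was also below at 5 of 5 macrophage genes (median ratio 0.83) and 7 of 9 housekeeping genes (0.894), and at 1 of 3 stellate cell and fibroblast genes (1.06). Over 12614 promoter peaks of at least 1 CPM (counts per 1 M reads in peaks, TMM-normalised) it was below at 5917 and the median ratio was 1.01. The founder differences in hepatocytes are therefore given with and without this library. Line libraries also differed within a strain. The third BXD75 library differed from the others of its strain by a chi-square per peak of 6.58 and 9.11, against 3.70 between those others. BXD87 libraries 2 and 3 differed from the first by 8.70 and 11.8 and from each other by 1.19. These 3 libraries all lay above the other 3 line libraries at 22.4% of promoter peaks and below them at 24.8%. They were above at 3 of 4 cholangiocyte genes, at Lrat and Reln, and at 3 of 15 genes of the wider endothelial list. Genes of unrelated cell types were above as well: 2 of 2 pluripotency genes (Klf4 and Esrrb) and the 1 male germ cell gene with a peak (Dazl). So were 2 of 15 hepatocyte genes, and 0 of 9 housekeeping genes. A further split ran between founders and lines: all 6 BXD libraries lay below all founder libraries except the third D2 library at 46.0% of the same promoter peaks, and TMM factors were 0.930 to 0.952 in founders and 1.04 to 1.10 in the lines. Founder or line status cannot be told apart from whatever else differed between those sets of libraries.

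**Figure D1:**
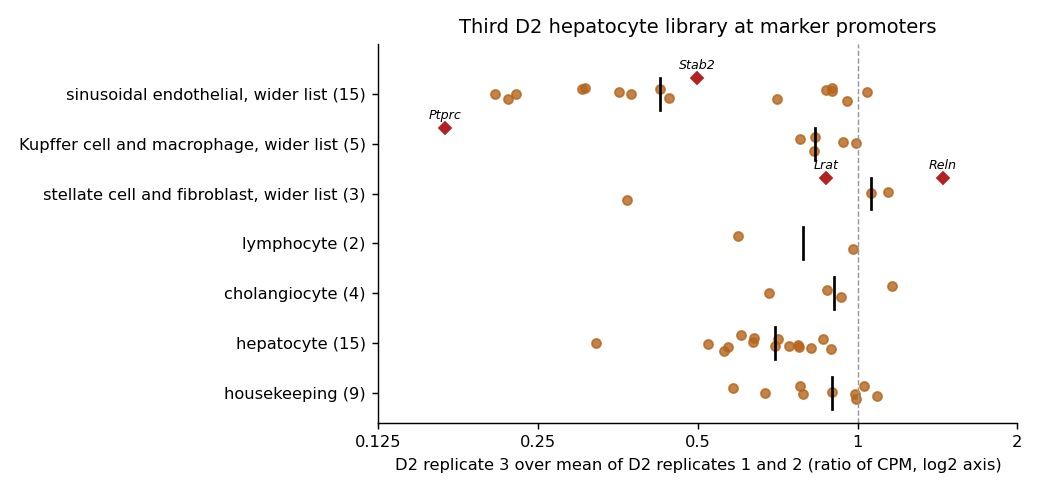
Ratio of the third D2 hepatocyte library to the mean of the other D2 libraries at the promoter peaks of each marker list (circles, 1 gene each, number of genes in parentheses; black bar, median) and of the members (red diamonds), on a log2 axis. The wider endothelial list had a median of 0.424 and Ptprc a ratio of 0.167, whereas Reln had 1.45.

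The members differed in how rich in CpG dinucleotides their promoters are, a property that the choice of members did not use. RefSeq promoter windows (GRCm38.p6) matched 7 of 10 members, and Lyve1, Adgre1 and Csf1r had no entry. In the 250 bases upstream of the start site the median over 32544 promoters was 6 CpG. Promoters with a hepatocyte peak had a median of 15 CpG and promoters without had 3. Reln had 37 CpG, Lrat 18, Des 10, Stab1 5, Ptprc 4 in its upstream-most window, Stab2 3 and Clec4f 0. The windows that span this range are shown 5′ to 3′ with CpG in capitals, from the CpG-dense promoters marked in every preparation (Reln, Lrat) through those marked in hepatocytes alone (Ptprc, Stab2) to a promoter marked in none (Clec4f). The Stab2, Ptprc and Clec4f windows stop at the first base that GENCODE M21 annotates as UTR.
Reln, chr5:22344706-22344955, minus strand: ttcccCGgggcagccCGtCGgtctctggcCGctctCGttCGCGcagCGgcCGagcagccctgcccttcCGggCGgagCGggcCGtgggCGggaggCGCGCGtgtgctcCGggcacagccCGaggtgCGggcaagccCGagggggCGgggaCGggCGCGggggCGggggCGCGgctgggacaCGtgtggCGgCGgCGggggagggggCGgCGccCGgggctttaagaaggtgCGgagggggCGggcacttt
Lrat, chr3:82903975-82904224, minus strand: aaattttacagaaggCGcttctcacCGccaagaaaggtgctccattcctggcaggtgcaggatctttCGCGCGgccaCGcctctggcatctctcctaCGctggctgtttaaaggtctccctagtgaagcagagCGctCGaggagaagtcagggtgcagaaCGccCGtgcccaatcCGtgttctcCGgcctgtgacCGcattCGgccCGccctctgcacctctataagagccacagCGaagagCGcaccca
Ptprc, chr1:138175307-138175555, minus strand: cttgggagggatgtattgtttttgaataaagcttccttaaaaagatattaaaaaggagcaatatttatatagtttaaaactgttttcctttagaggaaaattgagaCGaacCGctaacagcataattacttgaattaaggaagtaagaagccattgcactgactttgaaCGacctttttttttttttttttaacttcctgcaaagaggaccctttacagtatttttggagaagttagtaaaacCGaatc
Stab2, chr10:87008026-87008192, minus strand: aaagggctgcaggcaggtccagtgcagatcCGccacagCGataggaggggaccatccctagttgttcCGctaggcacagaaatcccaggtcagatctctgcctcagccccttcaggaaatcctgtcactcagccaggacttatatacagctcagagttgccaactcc
Clec4f, chr6:83656188-83656366, minus strand: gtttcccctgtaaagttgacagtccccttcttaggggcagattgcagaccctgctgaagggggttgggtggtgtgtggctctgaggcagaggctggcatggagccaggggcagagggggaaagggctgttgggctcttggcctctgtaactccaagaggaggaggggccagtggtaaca

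Reln and Lrat, at the 97.8 and 78.2 percentile of CpG number, carried a promoter peak in all 4 preparations, and Des, at the 61.9 percentile, in 3. Stab1, Ptprc and Stab2, all under the median, each carried a promoter peak in 1 preparation. Clec4f had none. With 7 promoters this order is a description. Of the motifs searched on both strands, GAGGAA (the core of sites of the macrophage factor PU.1) was in the Ptprc and Stab1 windows and in 23.4% of all windows, TATAAA was in the Ptprc window and in 12.3%, CAGCTG (an E-box) was in the Des window and in 13.1%, and CCGGAA (ETS) was in the Reln window and in 12.1%. TGANTCA (AP-1) was in 0 member windows and in 6.73% of all. A match is a match of letters only.

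Stab2 encodes a scavenger receptor by which sinusoidal endothelial cells take up hyaluronan. Its promoter peak was present in hepatocytes alone, at chr10:87004517-87008306 over the start site, and it was found on the second genome alone. Its H3K4me3 level was 8.48, 12.5 and 9.64 CPM in the B6 libraries and 75.2, 55.7 and 32.6 CPM in the D2 libraries. It was 1.11, 2.55 and 2.04 CPM in BXD75 and 4.82, 3.40 and 3.19 CPM in BXD87. D2 was high, B6 intermediate and both lines low, and the D2 libraries did not overlap any other strain.

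Stab2 was the member called between the founders, lower in B6 than in D2 by a log2 difference of -2.41 ± 0.284 (SE, edgeR quasi-likelihood test, adjusted p = 3.28e-05, n = 3 libraries each). The D2 mean was 5.34 times the B6 mean. Without the third D2 library the log2 difference was -2.68 (edgeR adjusted p = 5.35e-07). Of the 4 members tested in hepatocytes 1 was called, where 9.23% of promoter peaks were called between the founders (4.61% lower and 4.62% higher in B6). That share covers promoter peaks found on either genome or both, whereas the Stab2 peak was found on the second genome alone. Its direction may therefore not be independent of how the peak was found. The part of genome choice in the Stab2 call was not tested. BXD75 and BXD87 differed by a log2 of -1.04 ± 0.402, which did not pass (edgeR adjusted p = 0.244). Founder genotypes at this locus in the lines were not used.

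Most genes of the wider endothelial list also had a higher mean in D2 once the third D2 library was left out. Without it, the D2 mean exceeded the B6 mean at 14 of 15 genes and the median log2 difference was -0.33, beside 0.02 for all promoter peaks. With it, the D2 mean was higher at 9 of 15 and the median was -0.11. Without it, 5 of 15 genes were called lower in B6 (Egfl7, Tie1, Fcgr2b, Dnase1l3 and Ehd3) and 1 higher (Gpr182), where 9.08% of promoter peaks were called (4.63% lower, 4.45% higher). With it, Egfl7, Tie1 and Fcgr2b were called lower and Gpr182 higher. Dnase1l3 and Ehd3 were chosen after their values were seen. At the hepatocyte genes the D2 mean was above the B6 mean at 15 of 15 without the third D2 library, with a median log2 difference of -0.14, and at 7 of 15 with it. The third D2 library was singled out by its low levels at these same 2 lists. Higher D2 means and added calls without it are therefore not independent of that choice.

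Tie1, an endothelial receptor tyrosine kinase, had a log2 difference of -0.60 ± 0.123 (edgeR adjusted p = 0.00173). Egfl7, an endothelial secreted factor, had -1.16 ± 0.178 (edgeR adjusted p = 0.000114), at a peak shared with Gm20532. Both were also called between the lines, in opposite directions, 2 of 15 genes where 2.33% of promoter peaks were called. Egfl7 was higher in BXD75, at 14.9 ± 2.1 CPM against 8.69 ± 1.4 in BXD87 (SD). Tie1 was lower in BXD75, at 14.3 ± 1.7 CPM against 20.2 ± 1.2. The peak assigned to Gpr182, an endothelial receptor, is 15234 bases long and also covers a start of Zbtb39, so its value of 0.41 ± 0.0854 (edgeR adjusted p = 0.00206) cannot be given to Gpr182 alone. Fcgr2b and Maf also share their peaks, and Maf and Gpr182 together made up 65.8% of the summed level of the list.

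Over the 11 peaks that belong to 1 gene alone, the summed level was 86.2 to 88.1 CPM in B6. It was 115.7, 116.5 and 59.1 CPM in the D2 libraries, 63.9 to 70.7 in BXD75 and 69.3 to 79.2 in BXD87. D2 lay above B6 except for the third D2 library, and with TMM both lines lay below B6. Without TMM the sum was 81.19 to 82.13 CPM in B6 and 66.46 to 76.22 CPM in BXD75. In BXD87 it was 73.19 to 82.56 CPM without TMM, which overlapped B6. As a share of the summed level of the housekeeping genes, both lines overlapped B6. With TMM, the D2 over B6 ratio of the sum was 1.33 without the third D2 library, where that of Stab2 was 6.41, and 1.11 against 5.34 with it. Over all 15 peaks the ratio was 1.11 without that library and 1.03 with it. That library was singled out by its low levels at genes of this list, so ratios without it are not independent of that choice. The part of endothelial cell number in the Stab2 difference was not tested. The other 5 genes of the list, the widely used endothelial markers Pecam1, Cdh5, Tek, Plvap and Robo4, had no promoter peak and so no level.

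Elsewhere in the Stab2 gene hepatocytes had 4 further peaks. At the largest, chr10:86877773-86882124, 128 kb downstream of the start, the level was 19.1 ± 0.72 CPM in B6 and 23.7 ± 1.1 in D2 (SD, n = 3). It was 34.4 ± 1.8 in BXD75 and 38.4 ± 1.7 in BXD87. This peak was called lower in B6 (log2 difference -0.31 ± 0.101, edgeR adjusted p = 0.0461), a call that was lost without the third D2 library (edgeR adjusted p = 0.0741). Here the lines were above the founders, the reverse of their order at the promoter. Line means also exceeded both founder means at the other Stab2 peaks inside the gene and at those inside Stab1 and Lyve1. At Stab1 the means were 3.48 in B6, 3.56 in D2, 7.92 in BXD75 and 8.51 CPM in BXD87. At the Reln peaks 341 and 336 kb from its start the line means were below both. The part of differences between the founder and line libraries as a whole was not tested. Over all hepatocyte peaks 15.8% were called between the founders.

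Stab1, the paralogous scavenger receptor, had no promoter peak in hepatocytes: the nearest peak lay 7.63 kb from its start. Lyve1, a hyaluronan receptor of sinusoidal and lymphatic endothelium (start site at base 110863239 of chromosome 7), had none in any preparation. Its nearest hepatocyte peak was 7.49 kb away. In stem cells a peak stood 1.29 kb from the Lyve1 start, just outside the window, with 13.8 ± 2.6 CPM in B6, 10.7 ± 3.4 in D2, 17.6 ± 6.3 in BXD75 and 14.7 ± 2.6 in BXD87 (SD). All 14 member peaks inside the window overlapped a start site.

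Ptprc encodes the receptor tyrosine phosphatase found on all nucleated blood cells, and its hepatocyte promoter peak (chr1:138173536-138175438) was the lowest of the 4 per kb. Its level was 8.48, 7.23 and 3.72 CPM in B6 and 8.64, 9.03 and 1.48 CPM in D2. It was 2.15, 2.14 and 2.26 CPM in BXD75 and 2.74, 1.58 and 1.38 CPM in BXD87. The founders overlapped, the third D2 library lay with the lines, and every other founder library lay above every line.

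The founder difference at Ptprc was a log2 of -0.01 ± 0.469 (edgeR adjusted p = 0.996), and -0.49 without the third D2 library (edgeR adjusted p = 0.320). BXD75 minus BXD87 was 0.24 ± 0.574 (edgeR adjusted p = 0.968). Between the lines 0 of 4 members were called by edgeR, 1 of 4 had an unadjusted p under 0.05, DESeq2 called 0, and 2.33% of promoter peaks were called.

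Clec4f, a lectin that marks Kupffer cells in mice, had its nearest hepatocyte peak 54.4 kb from its start. For Adgre1, an adhesion receptor of mature macrophages, that distance was 61.7 kb, and for Csf1r, the receptor of the macrophage growth factor CSF1, it was 67.5 kb. None of these 3 genes had a promoter peak in any preparation. The count tables hold reads in listed peaks only, so these members have no level here, and a level below the peak caller's limit is not a level of 0. Of the wider macrophage list 5 of 20 genes had a hepatocyte promoter peak, and 0 of 5 were called between the founders by edgeR. Id3, Nr1h3 and Irf8 had the highest levels per kb of that list. The summed level of the 5 genes was 337.0 to 359.0 CPM in B6, 327.0 to 392.0 in D2, 297.0 to 323.0 in BXD75 and 297.0 to 320.0 in BXD87. Without TMM the strains overlapped, at 313.2 to 335.0 CPM in B6, 306.0 to 364.1 in D2, 325.1 to 336.2 in BXD75 and 309.7 to 337.4 in BXD87. Id3 and Nr1h3, with means of 157 and 69.1 CPM over the hepatocyte libraries, made up most of this sum. Of the 5 peaks 4 belong to 1 gene alone. The part of macrophages in the sum was not tested.

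Lrat encodes the enzyme that esterifies retinol for storage in stellate cells. Its hepatocyte peak was short, 701 bases at chr3:82903585-82904286, was found on the second genome alone, and also covered a start of the antisense gene Rbm46os. The level was 1.96, 2.92 and 2.05 CPM in B6, 2.95, 3.03 and 2.61 CPM in D2, 4.11, 5.20 and 8.01 CPM in BXD75 and 2.80, 6.33 and 6.19 CPM in BXD87. The founders were low, 1 BXD87 library fell among them, and the highest levels were in the third BXD75 library and in BXD87 libraries 2 and 3, which stood apart from their own strains. The founder difference was -0.33 ± 0.366 (edgeR adjusted p = 0.702), and -0.39 without the third D2 library (edgeR adjusted p = 0.665), and the line difference 0.16 ± 0.274 (edgeR adjusted p = 0.949).

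Reln encodes reelin, a large secreted glycoprotein that stellate cells make in liver. Its hepatocyte promoter peak (chr5:22341715-22346571) held 15.3, 22.9 and 25.4 CPM in B6, 33.0, 33.1 and 48.0 CPM in D2, 25.8, 21.8 and 51.8 CPM in BXD75 and 28.8, 52.1 and 52.5 CPM in BXD87. All D2 libraries were above all B6 libraries. The line libraries at 51.8 to 52.5 CPM were the same 3 that were highest at Lrat, and the other line libraries lay at 21.8 to 28.8 CPM. Epcam, an epithelial marker of the cholangiocyte list chosen after its values were seen, held 20.5, 12.8 and 16.3 CPM in those 3 libraries and 4.69 to 6.98 CPM in the other line libraries. The part of other cells in the Lrat and Reln levels was not tested. The Reln founder difference of -0.83 ± 0.328 did not pass (edgeR adjusted p = 0.120), and without the third D2 library it was -0.63 (edgeR adjusted p = 0.385). It passed with a replicate block (edgeR adjusted p = 0.00469) and in a fit of the founders alone (edgeR adjusted p = 0.00775). Des, which encodes the muscle and stellate cell filament protein desmin, had no hepatocyte promoter peak, its nearest peak being 41.4 kb away.

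The clearest strain difference at Reln lay inside the gene. Peaks at chr5:22003067-22004561 and chr5:22006804-22010136, 341 and 336 kb from the start and over exons, held 9.22 ± 2.8 and 17.9 ± 2.1 CPM in D2 (SD, n = 3). The same peaks held 0.963 ± 0.66 and 1.54 ± 1.1 CPM in B6, 0.298 ± 0.11 and 1.24 ± 0.43 in BXD75, and 0.206 ± 0.053 and 0.445 ± 0.054 in BXD87. D2 alone was high, as at the Stab2 promoter, and these peaks too were found on the second genome alone. The part of genome choice in these differences was not tested. The log2 differences were -3.35 ± 0.360 (edgeR adjusted p = 2.26e-06) and -3.66 ± 0.350 (edgeR adjusted p = 1.41e-06). A peak at chr5:22106241-22108837, 237 kb from the start, also differed (-1.49 ± 0.162, edgeR adjusted p = 2.45e-06), with 6.96 ± 0.38 CPM in B6, 19.5 ± 2.5 in D2, 11.4 ± 1.3 in BXD75 and 11.7 ± 2.3 in BXD87. Among the 10 hepatocyte peaks elsewhere in the members' genes 4 were called between the founders, all lower in B6. Over all hepatocyte peaks 15.8% were called, in either direction. The 4 were the 3 Reln peaks above and the Stab2 peak 128 kb from its start, so they do not stand for 4 genes. Without the third D2 library these 3 Reln peaks were called (edgeR adjusted p of 3.5e-06, 1.13e-05 and 1.79e-05) and the other 7 of the 10 were not.

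The test over all 4 strains called Stab2, Lrat and Ptprc, 3 of 4 members, with edgeR adjusted p of 1.32e-07, 0.00357 and 0.00875, and gave 0.0516 for Reln. Reln passed or missed by which library was left out, with adjusted p from 0.00294 (without the third BXD75 library) to 0.160 (without the second BXD87 library). Without the 3 line libraries that stood apart, Ptprc no longer passed (edgeR adjusted p = 0.25), while Lrat (0.0208) and Reln (0.00461) passed. As 74.6% of promoter peaks were called by the same test, this share is near the background and is not a result about the members. Stab2 was highest in D2, Ptprc was higher in founders apart from the third D2 library, and Lrat was highest in the 3 line libraries that stood apart.

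**Figure D2:**
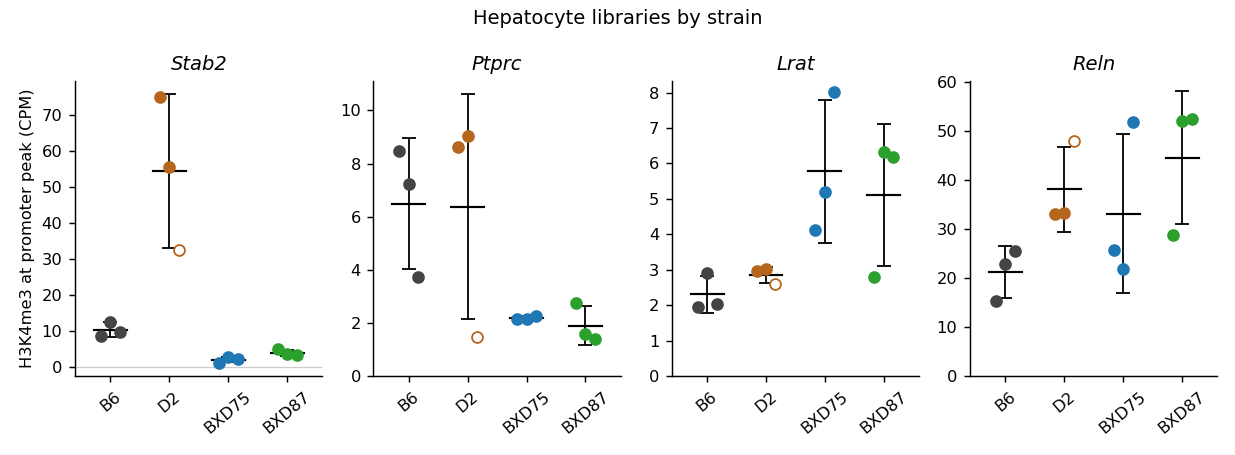
H3K4me3 level (CPM) at the 4 member promoters with a hepatocyte peak, by strain; circles are libraries, horizontal bars means, error bars SD (n = 3), and the open circle is the third D2 library. Stab2 reaches 32.6 to 75.2 CPM in D2 and at most 12.5 CPM in other strains.

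Of the stellate cell and fibroblast list 3 of 20 genes had a hepatocyte promoter peak, and 1 differed between the founders: Pdgfra, a receptor of fibroblastic cells, was higher in B6 (log2 difference 0.69 ± 0.142, edgeR adjusted p = 0.00192). The osteopontin gene Spp1 of the cholangiocyte list was higher in B6 (1.47 ± 0.160, edgeR adjusted p = 2.45e-06) and in BXD75 over BXD87 (1.53 ± 0.146, edgeR adjusted p = 9.79e-07). Of 15 hepatocyte genes edgeR called 0 between the founders, and 2 (both lower in B6) without the third D2 library. Of 9 housekeeping genes it called 0 with and without that library. The part of other cell types in the member differences was not tested.

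The promoter peaks whose levels across the 12 hepatocyte libraries were most like those of each class were ranked by Pearson r over 12064 or 12065 peaks of at least 5 CPM. Levels can move together with strain, preparation and depth across these libraries, so r is a description. Closest to Ptprc was Erg, an endothelial ETS factor, with r = 0.953 over 12 libraries and 0.906 after strain means were subtracted. Msr1, a macrophage scavenger receptor, followed (0.952 and 0.939), then Ifi207, Gimap6 and Slfn5 (0.951, 0.942 and 0.936). Erg held 9.24, 8.53 and 8.69 CPM in B6 and 10.9, 11.3 and 2.52 CPM in D2, and so shared the drop of the third D2 library. Closest to Stab2 was 3830408C21Rik, with r = 0.977 that was 0.630 after strain means were subtracted, then Car3, Tor4a, Herc6 and Gm17108 (0.966, 0.963, 0.962 and 0.958). No gene of the endothelial list was among these 5. The limit of 5 CPM kept out list genes with a lower mean, such as Dnase1l3 (4.11 CPM). List genes without a promoter peak could not appear either. Closest to Lrat and Reln together were Ltk (0.969, and 0.954 after strain means were subtracted), Gm48695, C2cd4d, Fam78b and Gm13261 (0.964, 0.958, 0.956 and 0.953).

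In cardiomyocytes, a preparation of another tissue with its own endothelial cells and fibroblasts, 4 of 10 members had a promoter peak: Stab1, Lrat, Des and Reln. Des, a structural gene of cardiac muscle as well as of stellate cells, had a peak of 11658 bases there (chr1:75356760-75368418), against 3169 in stem cells and 3268 in germ cells. Its level was 91.9, 110.3 and 92.3 CPM in B6, 87.6, 98.6 and 94.9 in D2, 89.8, 82.3 and 93.6 in BXD75 and 97.6, 109.3 and 115.5 in BXD87. The founders overlapped (log2 difference 0.07 ± 0.103, edgeR adjusted p = 0.711).

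Stab1 was marked in cardiomyocytes alone, at chr14:31164535-31173041, by a peak found on the reference genome alone. It held 56.2, 68.0 and 54.2 CPM in B6, 74.0, 75.2 and 84.7 in D2, 70.5, 54.1 and 61.6 in BXD75 and 49.8, 51.7 and 52.5 in BXD87. D2 was above the other strains without overlap. The founder difference of -0.39 ± 0.117 did not pass with edgeR (adjusted p = 0.0634) and passed with DESeq2 (adjusted p = 0.0435).

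Reln in cardiomyocytes (chr5:22343567-22345535, found on the second genome alone) held 5.09, 11.8 and 5.81 CPM in B6, 20.4, 20.8 and 23.1 in D2, 15.4, 5.83 and 7.02 in BXD75 and 5.36, 9.10 and 4.35 in BXD87. D2 again lay above every other library. Reln was called lower in B6 (log2 difference -1.51 ± 0.396, edgeR adjusted p = 0.0390), 1 of 4 members where 8.51% of promoter peaks were called (3.07% lower and 5.43% higher in B6). That share is not limited to peaks found on the second genome alone. The direction at Reln may therefore not be independent of how its peak was found. The part of genome choice in the Reln call was not tested. The call was lost when any of 5 of the 6 founder libraries was left out, with adjusted p of 0.0951 to 0.187, and stood without the second B6 library (edgeR adjusted p = 0.00987). Lrat gave -0.39 ± 0.317 (edgeR adjusted p = 0.454).

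Other values moved with the same contrast. D2 cardiomyocyte libraries had 2.62 to 4.10 M reads in peaks against 6.84 to 8.34 M reads in B6. Of 5 cardiomyocyte genes with a promoter peak 3 were called, all higher in B6, with a median log2 of 0.61. The median was -0.24 over 13 stellate cell and fibroblast genes, of which 1 was called lower in B6, and 0.01 over 11 endothelial genes, of which 0 were called by edgeR. Over all promoter peaks the median was -0.04. The part of these in the Reln and Stab1 differences was not tested. Between BXD75 and BXD87 edgeR called 0 of 4 members, DESeq2 called 0, 2 had an unadjusted p under 0.05, and 0.433% of promoter peaks were called.

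**Figure D3:**
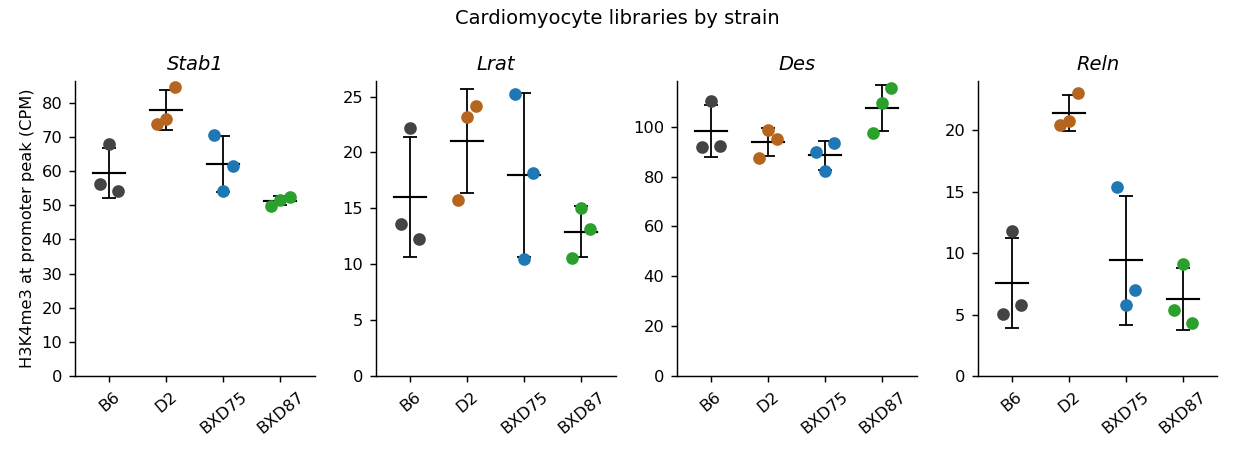
H3K4me3 level (CPM) at the 4 member promoters with a cardiomyocyte peak, by strain; circles are libraries, horizontal bars means and error bars SD (n = 3). D2 lies above the other strains at Reln (20.4 to 23.1 CPM) and Stab1 (74.0 to 84.7 CPM), while Des overlaps between the founders.

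Stem cells and germ cells carried peaks at the 3 stellate members and at none of the endothelial, Kupffer cell and leukocyte members. In stem cells Lrat held 13.4, 14.2 and 16.3 CPM in the B6 lines and 16.6, 16.3 and 17.1 in the D2 lines. Its range was 12.9 to 16.1 over BXD75 lines and 13.1 to 15.0 over BXD87 lines. Des held 14.1, 12.3 and 10.8 CPM in B6 and 19.1, 9.79 and 15.2 in D2, and Reln 13.8, 16.2 and 14.5 in B6 and 17.2, 16.7 and 12.5 in D2. Lrat in the D2 lines was at or above the B6 lines, and the other genes overlapped. edgeR called 0 of 3 members between the founders, where 17.3% of promoter peaks were called, and 0 of 3 between the lines, where 14.5% were. DESeq2 called 0 in both, and 0 had an unadjusted p under 0.05.

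In germ cells Lrat held 22.3, 27.8 and 25.9 CPM in B6, 27.9, 31.2 and 27.6 in D2 and 31.5, 27.4, 25.3 and 21.2 in the F1. Reln held 19.3, 33.2 and 22.0 CPM in B6, 26.5, 34.0 and 27.0 in D2 and 28.5, 29.0, 28.7 and 22.4 in the F1. Des held 10.1, 16.9 and 7.69 CPM in B6, 10.6, 15.7 and 12.8 in D2 and 13.8, 14.2, 12.2 and 8.78 in the F1. All 3 strains overlapped at each gene. edgeR called 0 of 3 members between the founders (7.51% of promoter peaks) and 0 of 3 between the F1 and the mean of its parents (0.787% of promoter peaks). DESeq2 called 0 in both, and 0 had an unadjusted p under 0.05. Without the second B6 column Reln was called lower in B6 (log2 difference -0.50, edgeR adjusted p = 0.0459).

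Across 60 BXD strains in germ cells Lrat ranged from 24.4 to 40.1 CPM (median 32.5), Reln from 21.1 to 41.7 (median 30.6) and Des from 10.7 to 24.4 (median 16.1). The highest strain was 1.65 times the lowest at Lrat, 1.98 times at Reln and 2.29 times at Des. Repeat libraries of 7 strains gave a median ratio of highest to lowest of 1.11 at Lrat, 1.12 at Reln and 1.14 at Des, and up to 1.76 at Des in BXD99, whose libraries are of both lots. Strains of lot 2557645 (28) were lower than strains of lot 2746331 (32) at Des (log2 difference -0.17 ± 0.0631, edgeR adjusted p = 0.0164) and Lrat (-0.09 ± 0.0355, edgeR adjusted p = 0.0318). Reln gave 0.03 ± 0.0580 (edgeR adjusted p = 0.689). With 59.5% of promoter peaks called between lots (27.7% in this direction), 2 of 3 members is near the background, and lot cannot be told apart from strain. In BXD99 the library of lot 2557645 held 10.5, 24.9 and 20.7 CPM at Des, Lrat and Reln, and the libraries of lot 2746331 held 18.4 and 13.8, 30.1 and 28.9, and 30.0 and 24.1.

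**Figure D4:**
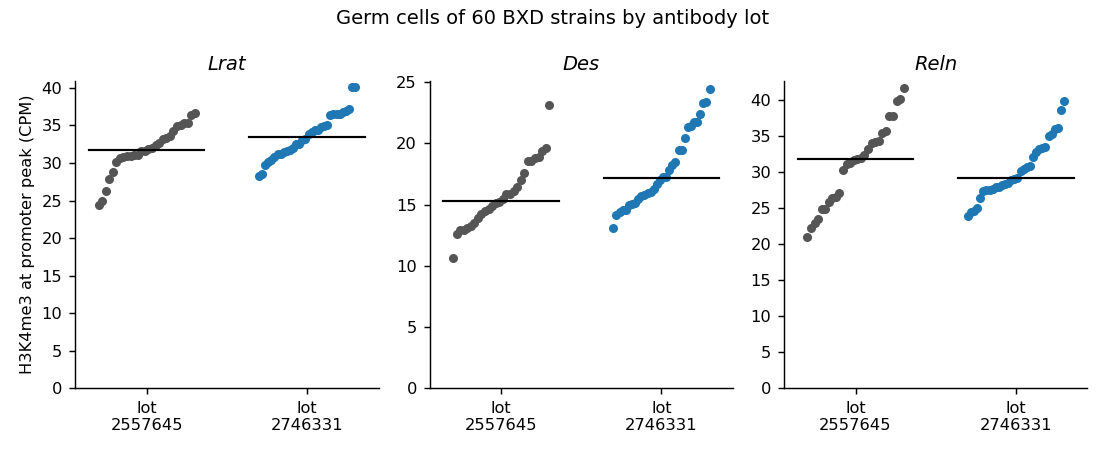
Germ cell H3K4me3 level (CPM) at the Lrat, Des and Reln promoters in 60 BXD strains, by antibody lot (28 and 32 strains); each circle is a strain, sorted by level within its lot, and the bar is the median. Lots overlap widely at each gene.

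To set the preparations side by side, reads were scaled to the reads in 3172 promoter peaks common to all 4 tables and divided by peak length. The tables were made separately, with different kits and lots, so no test was made. On this per-kb scale Lrat stood at 34.7 ± 19 in hepatocytes, 47.5 ± 14 in cardiomyocytes, 55.6 ± 5.7 in stem cells and 51.9 ± 5.5 in germ cells (SD over 12, 12, 20 and 10 libraries, repeats of a stem cell line included). Des stood at 46.3 ± 5.6 in cardiomyocytes, 31.2 ± 7.0 in stem cells and 20.6 ± 4.2 in germ cells. Reln stood at 41.7 ± 18 in hepatocytes, 31.3 ± 19 in cardiomyocytes, 41.1 ± 6.6 in stem cells and 42.4 ± 5.1 in germ cells. For Des the order was cardiomyocytes, stem cells, germ cells, each step larger than the larger SD of the pair. For Lrat and Reln neighbours in the order lay within a SD of each other. Stab1 in cardiomyocytes stood at 40.9 ± 7.0, Stab2 in hepatocytes at 25.2 ± 34 and Ptprc in hepatocytes at 12.4 ± 8.4. Relative to the median common promoter of the same preparation these were 62.1%, 45.2% and 22.2%, and Lrat in stem cells was nearest to that median, at 89.3%. Of the common promoters 0.0946% lay below Ptprc.

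**Figure D5:**
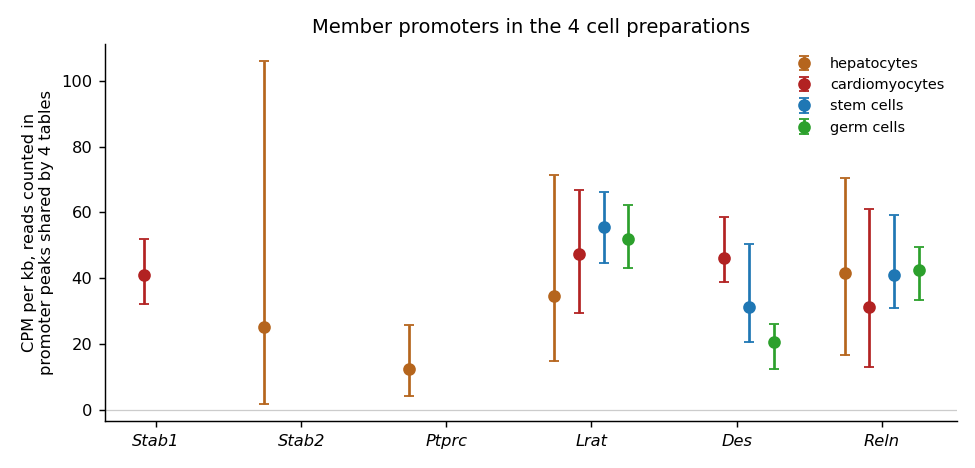
Level of the 6 marked members in each preparation with a promoter peak, as CPM over the reads of the 3172 common promoter peaks, per kb of peak; circles are means over libraries and bars run from the lowest to the highest library. Stab2 spans 1.86 to 106.0 across hepatocyte libraries, the widest range shown.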

How the data were processed

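H3K4me3 was measured in 123 ChIP-seq samples of chromatin cut with MNase, and 12 input samples were not used. The deposited tables give counts, whole-number reads per peak that the authors did not normalise, and (unit: other) deposited peak coordinates on mm10, with names that mark peaks found on both genomes, the reference genome or a second genome alone. The authors used MACS 1.4.2, BWA 0.5.10 and CASAVA 1.8, per the submitters' processing notes. Their roles, and which reads were counted, are not given in the sources used here. Every column of per-sample values was matched. The B6 germ cell columns carry numbers that the labels do not use and were taken as unnumbered replicates.

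Promoter peaks lay within 1 kb of a GENCODE M21 start, and the peak with the highest mean CPM stood for a gene. Each table was fitted whole in R 4.3.3 with edgeR 4.0.16 (filterByExpr, TMM, robust quasi-likelihood F test), p-values were adjusted by Benjamini-Hochberg over all its peaks, and an adjusted p under 0.05 was a call. Standard errors were taken from the log2 difference and its F. Stem cell libraries were summed by line: the 3 libraries of B6 line 49 differed by less than sampling noise (chi-square per peak 0.818 to 0.986), as did 2 of 3 libraries of D2 line 203 (0.858), and each line counted as 1 sample. Tested on simulated data, the hepatocyte founder fit recovered 85 of 100 peaks changed 2-fold and 100 of 100 changed 4-fold, with 6 false calls among 29138 peaks. The founder fits of cardiomyocytes, stem cells and germ cells recovered 66, 72 and 62 of 100 changed 2-fold. They recovered 99, 99 and 100 of 100 changed 4-fold. Common promoters were matched with bedtools 2.31.1 at 50% reciprocal overlap.

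Alternatives were DESeq2 1.42.0, RLE factors, no filter, a filter of 50 reads, windows of 500 bp and 2 kb, robust estimation off, leaving out each library, a fit of the compared groups alone and a replicate block. Replicate numbers do not pair libraries: 5 of 18 same-numbered hepatocyte pairs and 8 of 18 cardiomyocyte pairs deviated together with a correlation over 0.1. The text names all 10 members, from each marker list up to 3 genes with the highest hepatocyte level per kb and up to 4 called in hepatocytes, and the 5 promoters most like each class. The members and lists were chosen with earlier results of these data known.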

Additional observations from a re-analysis of the deposited data

Results flagged for a closer look

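In the germ cells of the (B6xD2)F1, the fourth library held 22.4 CPM at the Reln promoter while the other 3 held 28.5 to 29.0 CPM, a gap large enough to stand apart by Dixon's criterion. It was the 1 such library among 9 groups of 4 to 10 libraries or lines examined, and chance marks about 5% of groups. The same library was also the lowest of the F1 at Lrat (21.2 CPM) and Des (8.78 CPM).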

How the results depend on the processing

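Under the alternatives 178 values of the counts and sums stayed the same as or close to the main value and 12 did not. Close meant within a set fold for a count and within the SD for a sum. Of the single members 502 values kept direction and side of the threshold, 28 turned sign, 13 newly passed and 7 no longer passed. The hepatocyte founder call at Stab2 kept its direction and its call under all alternatives, with log2 differences from -2.68 to -2.12 as single libraries were left out. All alternatives used the same listed peaks. Members called between founders in hepatocytes rose from 1 to 2 with the 2 groups compared only and with the replicate block, both by Reln (log2 -0.84 and -0.85, adjusted p = 0.00775 and 0.00469). In cardiomyocytes that count of 1 became 2 with DESeq2 and with the 2 groups only, by Stab1, became 0 with the replicate block (Reln adjusted p = 0.0610), and ranged from 0 to 2 without single libraries. In germ cells the founder count ranged from 0 to 1. The block changed no other count of calls between strain pairs. In the 4-strain test Reln passed with the block (adjusted p = 0.000796) and with robust estimation off (0.0245). No paired analysis was possible for B6 germ cells because their columns carry other numbers than the labels. The signs that turned all belonged to differences that did not pass. Ptprc between hepatocyte lines gave -0.39 without the 3 line libraries that stood apart, where BXD87 kept 1 library that is assumed to vary like the others. Ptprc between founders gave 0.0053 with DESeq2 and 0.0786 with the replicate block. Reln in the F1 against its parents gave -0.0072 with DESeq2, -0.0088 with RLE factors and -0.0243 with at least 50 reads, and -0.0020 between lots with no filter. Without single libraries the ranges were -0.49 to 0.38 for Ptprc between hepatocyte founders, -0.17 to 0.37 for Lrat and -0.0025 to 0.58 for Ptprc between hepatocyte lines, and -0.0162 to 0.13 for Des between cardiomyocyte founders. For Des they were -0.48 to 0.0144 between stem cell founders and -0.55 to 0.0798 between germ cell founders. Against the F1 they were -0.14 to 0.0628 for Lrat, -0.14 to 0.18 for Des and -0.0751 to 0.14 for Reln. The cause of these changes was not tested. Leaving out single libraries from class sums, the third D2 library from lists and inner peaks, and the 3 line libraries were alternatives chosen after seeing the data. Lrat, Ptprc and the lines at Stab2 lay under 10 CPM in hepatocytes, where counting error weighs most.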
